A study of Mus musculus with 15 samples.

Results

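Carbonic anhydrases are zinc enzymes that interconvert carbon dioxide and water with bicarbonate and a proton. The 7 family members followed here, identified by gene symbol, were Car2, Car3, Car4, Car5b, Car8, Car13 and Car14. They were chosen with earlier results of these data known, and 9 other carbonic anhydrases on the array are described further below. All 7 were among the 18194 genes read by a probe set with a single gene symbol, and all 7 lay above the filter on dim probe sets that left 13174 genes for testing. Each gene was read by its brightest probe set over the 15 arrays.

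The tissue was the interscapular brown fat of adult male wild-type C57BL/6N mice on a high-fat diet, taken 5 days after treatment, with 5 mice in each of 3 groups. The first group received the agonistic antibody bFKB1 that binds the FGF receptor FGFR1 together with KLB, its partner (aFGFR1/KLB), given once into the peritoneum at 10 mg/kg. The second received human FGF21, the hormone that signals through the same receptor pair, at 1 mg/kg b.i.d., which is 2 mg/kg per day. The third was the control group, and no substance given to these mice is named in the labels. Dose and schedule differed between the agents, so that agent, dose and schedule cannot be told apart in the comparison of the antibody with FGF21. The replicates are separate mice, numbered 41 to 45 (antibody), 36 to 40 (FGF21) and 31 to 35 (control).

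Members of the family differ by where they work. Car2, Car3 and Car13 are soluble enzymes of the cytosol, Car4 is held to the outer face of the plasma membrane by a lipid anchor, Car14 spans the membrane with its active site outside, and Car5b sits in the mitochondrial matrix. Car8 is a related protein that lacks the catalytic activity and binds an inositol trisphosphate receptor. In fat cells, bicarbonate is a substrate of pyruvate carboxylase and acetyl-CoA carboxylase, and heat production from fuel oxidation releases carbon dioxide in mitochondria.

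The tissue check used Ucp1, a brown fat marker, and Adipoq, an adipocyte marker, and both were bright in every sample. Ucp1, which uncouples respiration from ATP synthesis in brown fat, lay at 14.72 to 14.82 on the log2 intensity scale with the antibody, 14.55 to 14.76 with FGF21 and 14.52 to 14.67 in controls. Ucp1 was called higher with the antibody than in controls (log2 fold change 0.19, limma adjusted p = 0.0494). With FGF21 it was not called (0.10, adjusted p = 0.290). Adipoq, which encodes adiponectin, lay between 14.06 and 14.23 in all 15 samples. Of 12 brown adipocyte markers, 4 rose and 1 fell with the antibody, and 2 rose and 2 fell with FGF21. Over all genes, 2.69% rose and 2.49% fell with the antibody, and 2.64% and 3.68% with FGF21. The summed level of the 12 markers was 101019 to 112784 with the antibody, 86751 to 108425 with FGF21 and 88470 to 101245 in controls. The part of brown adipocyte content in the member values was not tested. FGF21 36 and control 34 carried summed intensities of 15 macrophage markers of 52196 and 42751, while the other 13 samples lay between 6653 and 23338. Skeletal muscle markers (16 genes) varied widely within the antibody group (4333 to 145836) and the FGF21 group (1296 to 135867), and less in controls (10456 to 38392). In a piece of whole tissue, a change in the share of a cell type and a change in RNA per cell cannot be told apart.

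With the antibody, 2 of the 7 carbonic anhydrases rose against control and 0 fell (limma, Benjamini-Hochberg adjusted p under 0.05 over all 13174 genes), where 5.18% of all genes tested passed, 2.69% higher and 2.49% lower. Those that rose were Car14 and Car4, both enzymes of the cell surface. Car12, a surface enzyme outside the 7, fell with the antibody (−1.31, adjusted p = 0.0146). Over the 12 family genes tested, 2 rose and 1 fell with the antibody. With FGF21, 0 of the 7 rose and 0 fell at the adjusted threshold, where 6.32% of all genes passed, 2.64% higher and 3.68% lower. Car4 alone had an unadjusted p under 0.05 there. In the direct comparison of the antibody with FGF21, 1 of the 7, Car14, was higher and 0 were lower, where 0.372% of all genes passed, 0.129% higher and 0.243% lower. Every antibody value was above every control value for 2 of the 7 (4.44% of all genes) and below for 0 (4.17%), and every FGF21 value was above every control value for 0 of the 7 (2.37%) and below for 0 (2.88%). Between the agents, 2 of the 7 had every antibody value above every FGF21 value (2.39% of all genes) and 0 had every one below (2.3%). The median log2 fold change over the 7 members was 0.21 for the antibody against control and 0.15 for FGF21 against control, where the median over all genes was −0.02 in both. Both comparisons with control use the same 5 control mice.

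**Figure D1:**
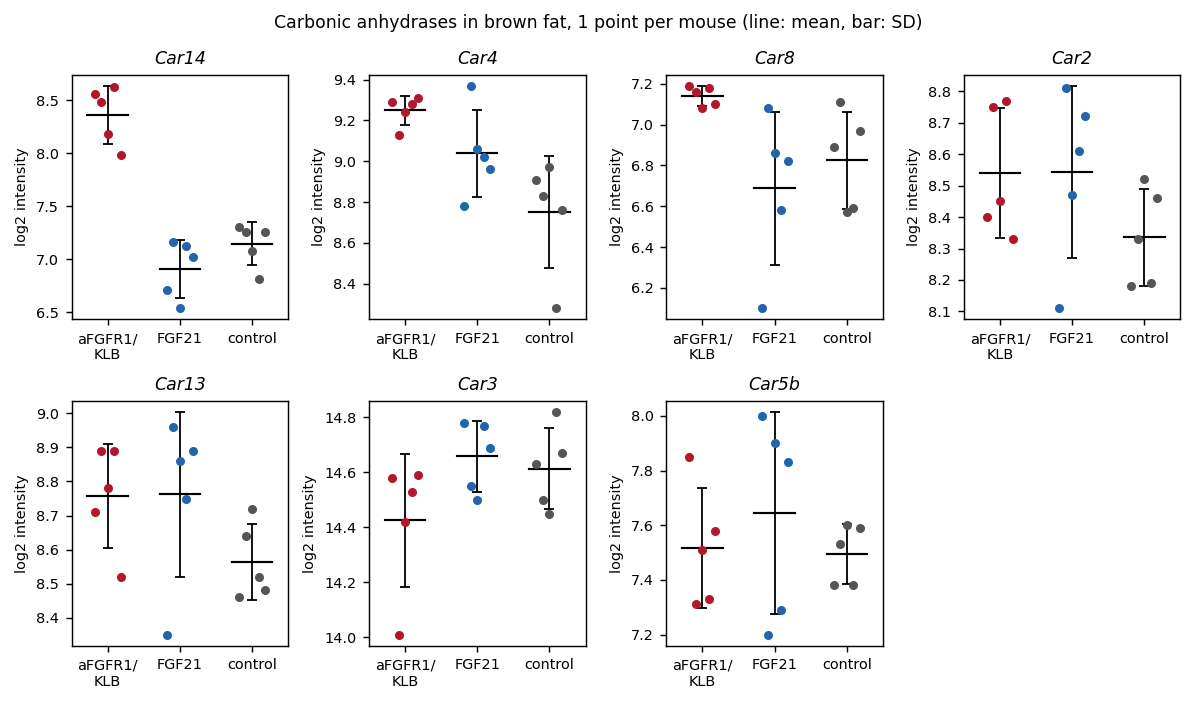
Log2 intensity of each of the 7 carbonic anhydrases (one panel a gene, each with its own vertical axis) by group, with 1 point per mouse, a line at the mean and a bar of 1 SD (n = 5). All antibody points of Car14 lie above all points of the FGF21 and control groups. For Car4 the antibody points lie above the control points and overlap those of FGF21.

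Car14 is read by a single probe set (1450725_s_at) and its gene is on mouse chromosome 3. Its log2 intensity was 8.56, 8.48, 8.18, 8.62 and 7.98 in the antibody-treated mice, 6.71, 7.16, 6.54, 7.13 and 7.02 in the FGF21-treated mice, and 7.31, 7.26, 7.08, 6.82 and 7.26 in the controls. The lowest antibody value was above the highest value of either other group, while the FGF21 and control values overlapped. Mean levels were 8.36 ± 0.27 with the antibody, 6.91 ± 0.27 with FGF21 and 7.15 ± 0.20 in controls (SD, n = 5 each).

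Car14 rose by 1.22 ± 0.15 on the log2 scale with the antibody against control (SE, adjusted p = 0.000735), a 2.33-fold difference, and ranked 15 of 13174 by p. With FGF21 its log2 fold change against control was −0.24 ± 0.15 (95% interval −0.55 to 0.08, adjusted p = 0.421). The direct comparison of the antibody with FGF21 gave 1.45 ± 0.15, or 2.74-fold (adjusted p = 0.000614). By size this was rank 1 of 13174 among genes higher with the antibody than with FGF21, and by p it was rank 2 in either direction. Leaving out each mouse in turn kept Car14 called in 15 of 15 fits in both comparisons, with log2 fold changes of 1.14 to 1.31 against control and 1.36 to 1.55 against FGF21.

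Car14 is also known from muscle membranes, so muscle markers are given beside it. Of the 15 muscle markers tested, 0 rose and 0 fell with the antibody against control, with a median log2 fold change of −1.55. Mb (1.77, adjusted p = 0.113) and Myh2 (0.27, adjusted p = 0.948) went the other way from the rest. Within the antibody group, the summed muscle markers were 57468, 4333, 10289, 5765 and 145836 in replicates 41 to 45, beside Car14 levels of 8.56, 8.48, 8.18, 8.62 and 7.98. The mean log2 levels of the same markers were 11.12, 5.77, 8.36, 5.42 and 12.49, which put replicate 44 rather than 42 lowest. The mouse with the highest muscle sum had the lowest Car14 level, and replicate 41, the second in muscle sum, was also the second in Car14 level. The part of muscle content in the Car14 values was not tested. With control 34 and FGF21 36 left out together, the Car14 differences were 1.14 against control and 1.40 against FGF21, both called (adjusted p = 0.000619 and 0.000686).

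**Figure D2:**
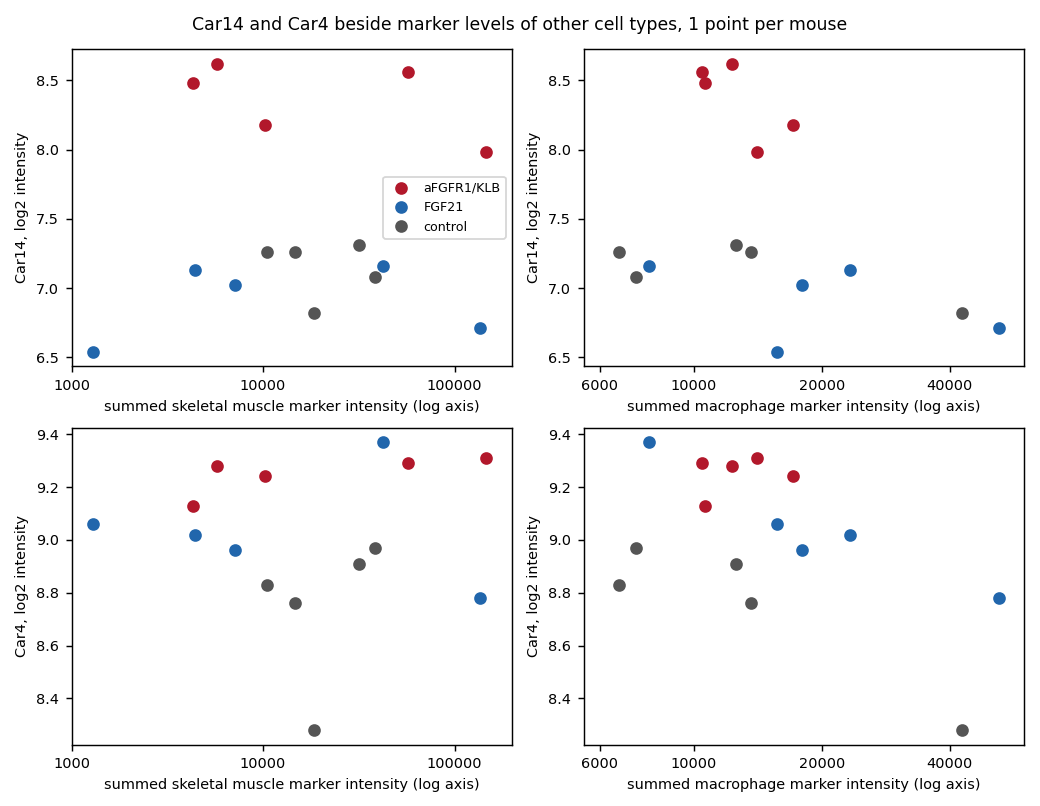
Log2 intensity of Car14 (top) and Car4 (bottom) against the summed intensity of 16 skeletal muscle markers (left) or 15 macrophage markers (right) on a log axis, 1 point per mouse. The Car14 levels of the antibody group stand above the other groups over muscle sums of 4333 to 145836, and the lowest Car4 level, 8.28, is that of control 34.

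Car4, the lipid-anchored surface enzyme known from capillary endothelium, lies on chromosome 11 and was read by the probe set 1418094_s_at. Its log2 intensity was 9.29, 9.13, 9.24, 9.28 and 9.31 with the antibody, 8.78, 9.37, 9.06, 9.02 and 8.96 with FGF21, and 8.91, 8.83, 8.97, 8.28 and 8.76 in controls. The antibody values lay close together and above every control value, and the FGF21 values spread across both.

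Car4 rose by 0.50 ± 0.12 with the antibody against control (SE, adjusted p = 0.0305), a 1.42-fold difference. The difference with FGF21 against control was 0.29 ± 0.12 (95% interval 0.02 to 0.55, adjusted p = 0.200), and the antibody against FGF21 gave 0.21 ± 0.12 (−0.05 to 0.48, adjusted p = 0.457). The call against control was close to the threshold. It ended without control 32 or 35 (adjusted p = 0.0565 and 0.0586) and without any one of the antibody mice 41 to 45 (adjusted p 0.0538 to 0.0698), while the log2 fold change stayed between 0.39 and 0.56 in the fits without 1 mouse. Without control 34, the control with the lowest Car4 level, it was 0.39 (adjusted p = 0.0226). When ribosomal protein genes set the centre of each array it was 0.60 and was not called (adjusted p = 0.18).

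The other probe set of Car4 (1448949_at) gave 0.69 with the antibody (adjusted p = 0.0159 over all probe sets) and 0.47 with FGF21 (adjusted p = 0.0769). Endothelial markers lay beside Car4 as follows: 1 of 13 rose with the antibody (Sox17, an endothelial transcription factor) and 2 of 13 with FGF21. Over all genes, 2.69% rose with the antibody and 2.64% with FGF21. The median log2 fold change of the 13 markers was 0.20 with the antibody and 0.17 with FGF21, where all genes had −0.02. The summed level of the 13 markers was 6402 to 7369 with the antibody, 5981 to 8585 with FGF21 and 5439 to 6489 in controls, and the part of endothelial content in the Car4 difference was not tested.

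The 250 bases before the annotated start sites of Car14 and Car4, the members called with the antibody, are shown from RefSeq (GRCm38.p6), which gave a promoter for 3 of the 7 members. Car14 lies on the minus strand (chr3:95904686-95904935) and Car4 on the plus strand (chr11:84957504-84957753), each printed 5′ to 3′ on the gene's own strand. Capitals mark matches to CCGGAA, an extended site of ETS factors. Some of these transcription factors act downstream of ERK signalling.
Car14: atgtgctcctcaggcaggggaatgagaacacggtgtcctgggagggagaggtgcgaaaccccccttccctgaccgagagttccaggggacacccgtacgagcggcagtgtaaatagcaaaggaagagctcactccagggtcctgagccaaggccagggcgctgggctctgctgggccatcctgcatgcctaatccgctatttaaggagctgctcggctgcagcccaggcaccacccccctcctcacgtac
Car4: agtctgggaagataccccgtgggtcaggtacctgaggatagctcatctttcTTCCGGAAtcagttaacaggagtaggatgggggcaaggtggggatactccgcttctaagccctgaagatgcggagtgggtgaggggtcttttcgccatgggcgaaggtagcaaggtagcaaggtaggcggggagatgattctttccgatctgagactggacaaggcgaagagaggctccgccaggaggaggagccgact
Both strands were searched for 5 motifs. The ETS site was searched as CCGGAA, which is stricter than the short core GGAA. Matches to GGAA alone were not counted. The AP-1 site was searched as TGANTCA. The cyclic AMP response element was searched as TGACGTCA. The E-box was searched as CACGTG. The TATA box was searched as TATAAA. Car4 held 2 overlapping matches to the extended ETS site, on opposite strands, and 0 of the other motifs. Car14 held 0 of the 5. Of 32851 promoter windows of the same length, 12% held the extended ETS site and 6.75% AP-1. The cyclic AMP response element was in 1.55%, the E-box in 6.02% and the TATA box in 12.4%.

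The cytosolic enzymes Car2, Car3 and Car13 lie next to each other on chromosome 3, with Car1 between Car13 and Car3, and none of the 3 passed in any comparison. Car2, the fast and widely expressed form, had log2 intensities of 8.40, 8.75, 8.45, 8.77 and 8.33 with the antibody, 8.11, 8.81, 8.47, 8.61 and 8.72 with FGF21, and 8.18, 8.33, 8.52, 8.19 and 8.46 in controls. The groups overlapped. Its difference from control was 0.21 ± 0.13 with either agent (SE, adjusted p = 0.430 with the antibody and 0.417 with FGF21), and between the agents it was −0.00 ± 0.13 (95% interval −0.28 to 0.28).

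Car13 was at 8.71, 8.89, 8.78, 8.89 and 8.52 with the antibody, 8.35, 8.96, 8.86, 8.75 and 8.89 with FGF21, and 8.46, 8.64, 8.72, 8.52 and 8.48 in controls. FGF21 36 was the lowest of all 15, and the other FGF21 values were above all control values. The log2 difference from control was 0.20 ± 0.11 with each agent (adjusted p = 0.354 with the antibody and 0.339 with FGF21). Without FGF21 36 the FGF21 difference was 0.30 and passed (adjusted p = 0.0446). With array weights both passed, at 0.27 with the antibody (adjusted p = 0.0175) and 0.33 with FGF21 (adjusted p = 0.00463). Its other probe sets differed from control by 0.25 and 0.42 with the antibody and by 0.20 and 0.43 with FGF21, and none of these passed.

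**Figure D3:**
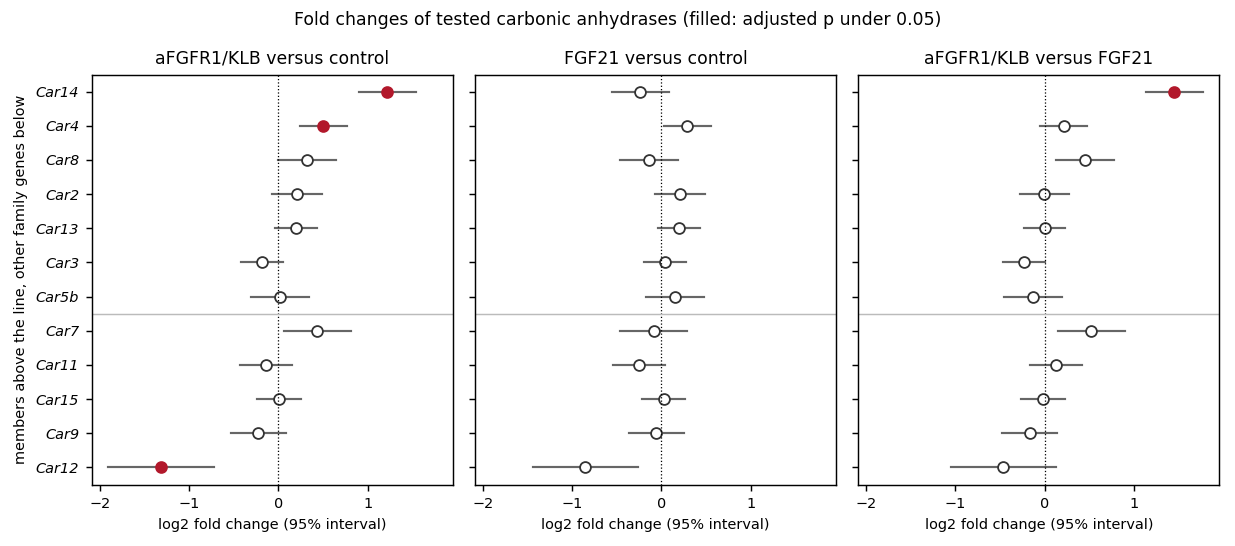
Log2 fold changes with 95% intervals of the 12 carbonic anhydrases tested, 7 members above the grey line and 5 other family genes below it, for the antibody against control (left), FGF21 against control (middle) and the antibody against FGF21 (right). Filled points passed the adjusted threshold of 0.05. Car14 and Car4 (higher) and Car12 (lower) are filled on the left, none in the middle and Car14 on the right.

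Car3, a slow cytosolic form that is abundant in fat cells and muscle, was read near the top of the scale. Its brightest probe set averaged 14.57 and ranked 15 of 13174 genes in mean log2 intensity. Levels were 14.58, 14.01, 14.42, 14.53 and 14.59 with the antibody, 14.78, 14.55, 14.50, 14.77 and 14.69 with FGF21, and 14.63, 14.50, 14.45, 14.82 and 14.67 in controls. The groups overlapped, and antibody mouse 42 was the lowest of the 15. The differences were −0.19 ± 0.11 for the antibody against control (adjusted p = 0.387), 0.04 ± 0.11 for FGF21 against control (adjusted p = 0.871) and −0.23 ± 0.11 for the antibody against FGF21 (95% interval −0.47 to 0.00, adjusted p = 0.378).

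The other 3 probe sets of Car3 gave larger differences with wider spread. Against control they were −0.60, −0.68 and −0.65 with the antibody and 0.07, 0.66 and 0.49 with FGF21, with adjusted p over all probe sets of 0.16 to 0.417 and 0.429 to 0.902. The antibody against FGF21 gave −0.68, −1.33 and −1.14 (adjusted p 0.168 to 0.204). The dimmest of them (1453588_at) averaged 8.76 ± 0.89 with the antibody, 9.90 ± 0.46 with FGF21 and 9.41 ± 0.62 in controls (SD, n = 5 each), a spread several times that of the brightest probe set, which had SDs of 0.24, 0.13 and 0.15. Markers of other cells stood beside the extremes of Car3 as follows. Antibody mouse 42, the lowest in Car3, also had the lowest summed level of 11 fibroblast and collagen markers (18639) of the 15 samples. Its sum of 7 white adipocyte markers was the lowest too (18919), but most of that was Adipoq (17200). In mean log2 level of those white adipocyte markers, antibody mouse 44 was lower (8.36) than mouse 42 (8.44). Control 34 and FGF21 36, the highest in Car3, had the highest fibroblast and collagen sums (82637 and 72880). Those sums were 18639 to 29008 with the antibody, 22955 to 72880 with FGF21 and 21523 to 82637 in controls. Of the 11 markers 0 passed in any comparison, with a median log2 fold change of −0.49 for the antibody against control, and their part in the Car3 values was not tested.

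**Figure D4:**
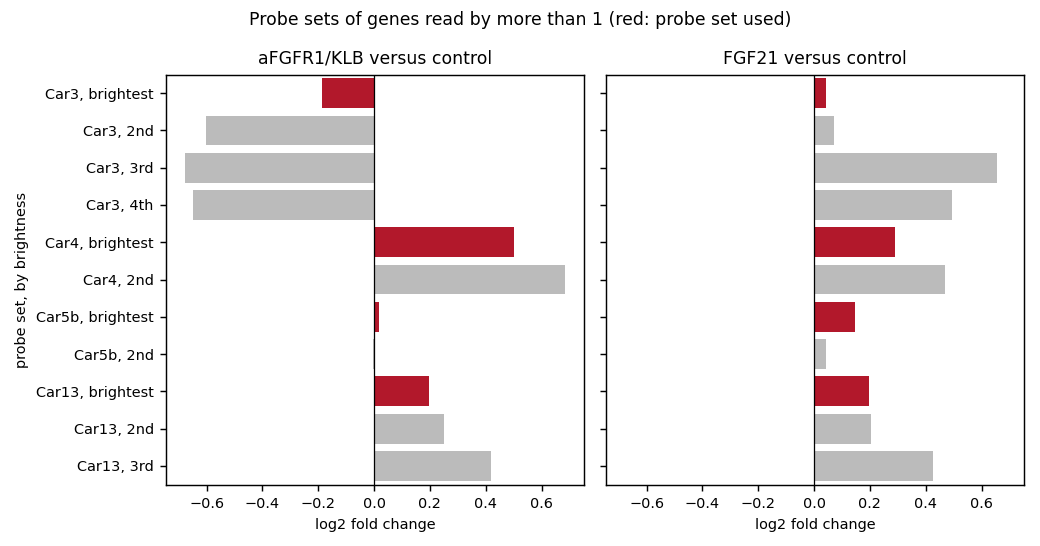
Log2 fold changes on every probe set above the filter for the 4 members read by more than 1 such probe set, ordered by brightness within a gene, for the antibody (left) and FGF21 (right) against control. Red bars are the probe sets used. The brightest probe set of Car3 gave −0.19 with the antibody and the other 3 gave −0.60 to −0.68, while the 3 probe sets of Car13 were above 0 in both panels.

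Car5b, the mitochondrial form whose gene is on the X chromosome, had levels of 7.85, 7.31, 7.51, 7.33 and 7.58 with the antibody, 8.0, 7.20, 7.90, 7.29 and 7.83 with FGF21, and 7.38, 7.53, 7.60, 7.38 and 7.59 in controls. The FGF21 mice held both the highest and the lowest values, 3 of them above every control and 2 below every control. The difference from control was 0.02 ± 0.15 with the antibody (adjusted p = 0.971) and 0.15 ± 0.15 with FGF21 (adjusted p = 0.649). The 95% intervals reached from −0.31 to 0.34 and from −0.18 to 0.47. The second probe set differed from control by −0.00 with the antibody and 0.04 with FGF21.

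Car8, the catalytically inactive member, lies on chromosome 4. Its levels were 7.19, 7.16, 7.08, 7.18 and 7.10 with the antibody, 6.10, 7.08, 6.86, 6.58 and 6.82 with FGF21, and 6.89, 7.11, 6.57, 6.59 and 6.97 in controls. The antibody values were tight (SD 0.05, against 0.37 with FGF21 and 0.24 in controls) and lay above every FGF21 value, the highest of which (7.08 in replicate 37) was just below the lowest antibody value. Car14 was the other member with every antibody value above every FGF21 value. The log2 difference between the antibody and FGF21 was 0.45 ± 0.15 and did not pass (unadjusted p = 0.00947, adjusted p = 0.224). It was 0.31 without FGF21 36, the lowest sample. Against control the differences were 0.32 ± 0.15 with the antibody (adjusted p = 0.274) and −0.14 ± 0.15 with FGF21 (adjusted p = 0.676).

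Of the other 9 carbonic anhydrases on the array, Car1, Car5a, Car6 and Car10 lay below the filter of 5.06 in mean log2 intensity, at 4.32 to 4.89, and were not tested. Of the 5 tested, 0 rose and 1 fell with the antibody, while 0 passed with FGF21 and 0 between the agents (limma). Over all genes, 5.18%, 6.32% and 0.372% passed in these comparisons. An unadjusted p under 0.05 was reached by Car7 and Car12 with the antibody, Car12 with FGF21, and Car7 between the agents. The gene that fell was Car12, a surface enzyme that, like Car14, spans the membrane with its active site outside.

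Car12 levels were 4.88, 5.45, 5.08, 4.72 and 5.37 with the antibody, 5.69, 5.22, 5.98, 5.31 and 5.62 with FGF21, and 6.95, 6.82, 6.70, 5.22 and 6.38 in controls. Control 34 was the lowest control and the only one that overlapped either treated group. Car12 fell by 1.31 ± 0.28 on the log2 scale with the antibody (SE, adjusted p = 0.0146). With FGF21 the difference was −0.85 ± 0.28 (adjusted p = 0.0842). Without control 34 both passed, at −1.61 (adjusted p = 0.000483) and −1.15 (adjusted p = 0.00105). When ribosomal protein genes set the centre of each array, the antibody difference was −1.22 and was not called (adjusted p = 0.0806). The antibody values 4.88 and 4.72 lay below the filter level of 5.06, so no fold is given. The other probe sets of Car12, both below the filter, differed by 0.03 and −0.17 with the antibody and were not tested.

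Car7, a cytosolic form, had log2 differences of 0.52 ± 0.18 between the antibody and FGF21 (adjusted p = 0.229) and 0.43 ± 0.18 between the antibody and control (adjusted p = 0.184), neither of which passed. Its other probe sets gave 0.22 and 0.15 between the agents. Car9, a hypoxia-induced form, Car11, an inactive relative, and Car15 differed from control by −0.26 to 0.02 over both agents.

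Genes that move or use bicarbonate, protons and lactate were counted by list. Over all genes tested, 2.69% rose and 2.49% fell with the antibody, and 2.64% rose and 3.68% fell with FGF21. Of 6 bicarbonate and anion transporters tested from a list of 15, 1 rose and 0 fell with each agent (list median log2 fold change 0.09 with the antibody and 0.11 with FGF21, where all genes had −0.02). The gene was Slc4a4, a sodium bicarbonate cotransporter. Its levels were 12.29, 12.25, 12.30, 12.38 and 11.82 with the antibody, 11.14, 12.27, 11.75, 11.76 and 11.96 with FGF21, and 10.91, 10.92, 10.92, 10.72 and 11.36 in controls. The antibody values were above all controls, and with FGF21 only replicate 36 lay within the control range.

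Slc4a4 rose by 1.24 ± 0.18 with the antibody (SE, adjusted p = 0.00165) and by 0.81 ± 0.18 with FGF21 (adjusted p = 0.015), and between the agents it differed by 0.43 ± 0.18 (adjusted p = 0.312). The FGF21 call ended with only the groups compared in the fit (adjusted p = 0.0577) and with arrays centred on ribosomal protein genes (adjusted p = 0.124). The next members by p with the antibody, Slc26a6, Slc26a11 and Slc4a3, differed from control by 0.22, −0.14 and −0.14 and did not pass.

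Of 9 genes of proton, lactate and water transport tested from a list of 14, 1 rose and 1 fell with the antibody and 1 rose and 2 fell with FGF21. The list median log2 fold change was −0.10 with the antibody and −0.05 with FGF21, where all genes had −0.02. Bsg, which encodes basigin, the chaperone of monocarboxylate transporters at the plasma membrane, was at 12.81, 12.97, 12.94, 13.09 and 12.46 with the antibody, 12.01, 12.91, 12.48, 12.54 and 12.52 with FGF21, and 11.74, 11.61, 11.76, 11.67 and 11.93 in controls. Neither treated group overlapped the controls. Bsg rose by 1.11 ± 0.14 with the antibody (adjusted p = 0.001) and by 0.75 ± 0.14 with FGF21 (adjusted p = 0.00714). The FGF21 call ended when ribosomal protein genes set the centre (0.76, adjusted p = 0.0836).

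Slc16a7, the monocarboxylate transporter MCT2, fell by 0.73 ± 0.14 with the antibody (adjusted p = 0.00918) and by 0.81 ± 0.14 with FGF21 (adjusted p = 0.00377), and its highest treated values, 6.76 with the antibody and 6.84 with FGF21, were below the lowest control, 7.02. Slc16a1, the transporter MCT1, fell by 0.47 ± 0.08 with FGF21 (adjusted p = 0.00494), where the antibody gave −0.10 ± 0.08 (adjusted p = 0.581). Its level was 12.80 to 13.07 with the antibody, 12.31 to 12.76 with FGF21 and 12.83 to 13.14 in controls. The antibody values lay above all FGF21 values, but the difference of 0.37 ± 0.08 did not pass (adjusted p = 0.074). It passed without control 34 (adjusted p = 0.0297). The FGF21 call against control ended when ribosomal protein genes set the centre (−0.46, adjusted p = 0.22).

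**Figure D5:**
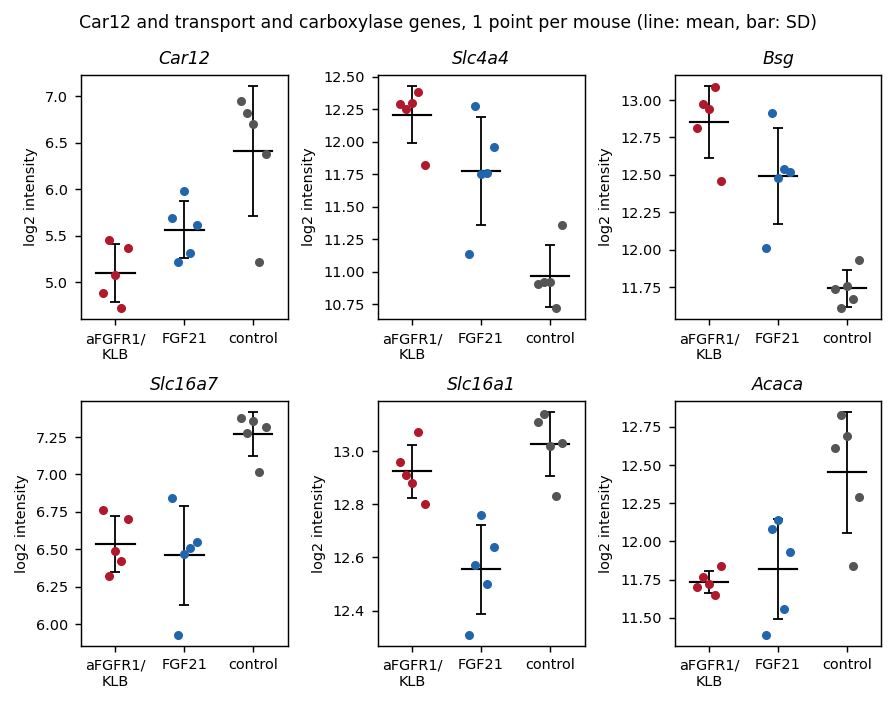
Log2 intensity of Car12 and of 5 genes of bicarbonate, lactate and fatty acid metabolism by group, with 1 point per mouse, a line at the mean and a bar of 1 SD (n = 5). Slc4a4 and Bsg are higher in both treated groups than in controls, Slc16a7 is lower in both, and for Slc16a1 the FGF21 points alone lie below all control points. Control 34 is the lowest control for Car12, Slc4a4, Slc16a7, Slc16a1 and Acaca.

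Genes of enzymes that use bicarbonate, all carboxylases except Cad and Cps1, were counted together. Their median log2 fold change was 0.01 with the antibody and −0.12 with FGF21, where all genes had −0.02. Of 8 tested from a list of 9, 0 rose and 1 fell with each agent. It was Acaca, acetyl-CoA carboxylase, which uses bicarbonate in the first step of fatty acid synthesis. It fell by 0.72 ± 0.18 with the antibody (SE, adjusted p = 0.0305) and by 0.63 ± 0.18 with FGF21 (adjusted p = 0.047). Its levels were 11.65 to 11.84 with the antibody, 11.39 to 12.14 with FGF21 and 11.84 to 12.83 in controls, of which control 34 was the lowest. The antibody call held in 8 of the 15 fits without 1 mouse (log2 fold change −0.87 to −0.62, adjusted p up to 0.0818) and the FGF21 call in 2 of 15 (−0.78 to −0.52, adjusted p up to 0.126). The antibody call ended without control 31, 32 or 33 or antibody mouse 41, 42, 43 or 44. Both calls ended when ribosomal protein genes set the centre (adjusted p = 0.297 with the antibody and 0.318 with FGF21). They also ended with the mean of all probe sets of a gene (adjusted p = 0.0747 with the antibody and 0.109 with FGF21). Next by p with the antibody was Cad, which differed by 0.64 ± 0.18 (adjusted p = 0.0529). Pcx, pyruvate carboxylase, differed by −0.24 ± 0.08 with the antibody (adjusted p = 0.0993), and neither gene passed.

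Of 14 genes of mitochondrial enzymes and enzyme complexes that release carbon dioxide, all tested, 1 rose and 0 fell with the antibody, and 0 passed with FGF21. The gene was Dbt, which encodes the acyltransferase of branched-chain amino acid breakdown, not the subunit of that complex that releases carbon dioxide. Dbt rose by 0.58 ± 0.12 with the antibody (adjusted p = 0.0115) and differed by 0.41 ± 0.12 with FGF21 (adjusted p = 0.0502). Bckdhb and Bckdha, of the same complex, differed from control by 0.31 and 0.08 with the antibody and did not pass (adjusted p = 0.0831 and 0.859). The FGF21 difference of Dbt passed in 9 of 27 alternatives. Among these were the fits without FGF21 36 (0.52, adjusted p = 0.00229) and without antibody mouse 45 (0.41, adjusted p = 0.0481). The antibody difference of Dbt was not called when ribosomal protein genes set the centre of each array (0.67, adjusted p = 0.105). The list medians were 0.06 with the antibody and −0.02 with FGF21, beside −0.02 for all genes.

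The genes whose pattern was most like that of a called member were found by the root mean squared difference of log2 values, each centred on its own mean, over the 15 samples. For Car14, whose own values lay 0.68 from their mean by that measure, the nearest of all tested genes were S1pr5 (0.31), Cntfr (0.36) and Tppp (0.38). For Car4, at 0.28 from its own mean, they were Bmp6 (0.10), Rnf185 (0.12) and Prkce (0.12).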

How the data were processed

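Total RNA of 15 brown fat samples was read on 1 array each. The authors' deposited values are intensities on a linear scale, 1 per probe set, made with RMA per the submitters' processing notes; its version and any later step are not given in the sources used here. RMA equalises the distributions of the arrays, so a change shared by most genes would not show. Values of 45101 probe sets were taken to log2. Of these, 34958 carried a single symbol in GEO's platform annotation and were reduced to the brightest per gene, and a gene was tested if its mean exceeded 5.06, which 40% of probe set means do not.

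A one-way model of the 3 groups was fitted to all 15 samples with limma 3.58.1 in R 4.3.3 (two-sided, 12 residual degrees of freedom), with Benjamini-Hochberg adjustment within each comparison and a threshold of 0.05; adjusted p and intervals are limma's. The fit was tested on simulated data with independent normal noise for each gene, equal in spread across groups. That setting does not cover shifts shared by many genes in single arrays. The number of arrays limits the precision. The p-values set each group difference against the spread between mice within groups, pooled over the 3 groups and moderated over all genes tested. Array medians were 50.6 to 52.1. The labels give no batch.

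Members, lists, tests and alternatives were chosen with earlier results of these data known. Named were the 7 members, the other carbonic anhydrases, up to 4 genes per list by smallest p, tissue markers, and the 3 genes most like each called member. Probe sets with the suffix _s_at can match more than 1 transcript. Promoters and gene order are RefSeq's (GRCm38.p6). Alternatives were other filters, probe set rules, scalings, weights and left-out samples.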

Additional observations from a re-analysis of the deposited data

Results flagged for a closer look

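Within the FGF21 group, the value of FGF21 36 stood apart from the other 4 mice for 3 genes of the 18 checked in each of 3 groups. It was the lowest for Car11, at 6.12 on the log2 scale, where the other 4 lay between 6.63 and 6.73. It was the lowest for Car6, at 4.0, where the others lay between 4.31 and 4.42, below the filter on dim probe sets. It was the lowest for Ucp1, at 14.55, where the others lay between 14.71 and 14.76. In these cases the gap to the nearest mouse, as a share of the group's whole range, was 0.835, 0.736 and 0.756. Chance gives such a gap in about 1 of 20 groups, and 54 groups were checked. FGF21 36 also had the highest macrophage marker sum of all samples (52196). Its brown adipocyte marker sum, which includes Ucp1, was the lowest of all samples (86751). Within the FGF21 group it had the highest muscle sum (135867) and the highest fibroblast and collagen sum (72880). The part of cell content in its values was not tested.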

How the results depend on the processing

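No paired analysis was possible because the replicate numbers do not repeat between groups. Over 27 alternatives Car14 was called against control (log2 fold change 1.13 to 1.31) and against FGF21 (1.34 to 1.55) in every one. Car4 against control was called in 19 of 27 (0.39 to 0.60). The count of members called against control with the antibody was 1 with arrays centred on ribosomal protein genes, 3 with array weights (Car4, Car13 and Car14), and 1 to 2 without a single mouse, in place of 2. With FGF21 against control it was 2 with array weights (Car2 and Car13), 1 without control 34 and FGF21 36 together (Car13), and 0 to 1 without a single mouse, in place of 0. Between the agents it was 2 with array weights (Car8 and Car14), in place of 1, and 1 in every fit without a single mouse. No called value changed sign. Of 477 member values called in neither fit, 25 changed sign. Over all genes, 682, 833 and 49 were called (antibody against control, FGF21 against control, antibody against FGF21). These counts were 145, 179 and 9 with ribosomal centring and 2307, 2855 and 832 with array weights. They were 1140, 2097 and 251 without control 34, 1631, 2138 and 241 without control 34 and FGF21 36 together, and 667, 322 and 87 with only the groups compared in the fit. The cause of these shifts was not tested. The share of calls that were higher was 77.2%, 66.5% and 22.2% with ribosomal centring, and 48%, 40.4% and 56.5% with array weights, beside 51.9%, 41.8% and 34.7%. Car12 could not be tested with the stricter filter or with the mean of all probe sets of a gene, nor Car8 with that mean. With 5 mice a group, the widths of the intervals given for the members limit what could be detected.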
